A study of Homo sapiens with 12 samples.

Results

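The transcriptome of PANC-1 cells, an established line from a human pancreatic ductal adenocarcinoma, was compared between cells transfected with a siRNA against MYOF (siMYOF) and cells transfected with a siRNA against the firefly luciferase GL3, which is not a human gene (siGL3). Each group held 3 libraries from separately seeded cultures, with RNA taken 48 h after the transfected cells were washed, so the comparison used 6 of the 12 libraries of the series, chosen by their labels. The other 6 libraries (PANC-1 cells with the myoferlin-binding compound WJ460 or with DMSO vehicle) entered the fit for the estimate of the spread between replicates. They also counted in the mean that chose the tested genes and in the size factors. All 6 libraries of the comparison came from the same line, labelled wild type in siGL3 and MYOF knockdown in siMYOF, all cells had been through calcium phosphate transfection of a siRNA, and the libraries were poly(A)-selected and stranded. The labels give 2 batch dates. Replicate 1 of each siRNA group belongs to the earlier batch and replicates 2 and 3 to the later one, which also holds the WJ460 and DMSO libraries. Since 1 siRNA sequence was used in 1 cell line, effects of losing myoferlin and effects of the siRNA on other transcripts cannot be told apart in these libraries.

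Myoferlin belongs to the ferlins, large proteins anchored in membranes by their C-terminal end and carrying a row of C2 domains, which bind phospholipids and, in part, calcium. In other cells ferlins take part in vesicle fusion, endocytosis, receptor recycling and the repair of the plasma membrane, and myoferlin is abundant in pancreatic carcinoma cells. A siRNA is loaded into an Argonaute protein, whose guide strand pairs with the target mRNA and directs its cleavage, and bases 2 to 8 of the guide, the seed, can also pair with other transcripts in the way of a microRNA.

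The siRNA sequence given in the study's methods matched the MYOF transcript over its full 19 bases. No other transcript did among those searched, 1 annotated transcript for each of 14666 genes. The matched site lies in the coding sequence on chromosome 10 (GRCh38, minus strand) and spans an exon junction, with 16 bases in exon 2 (chr10:93456882-93456897) and 3 bases in exon 3 (chr10:93452139-93452141). The strand complementary to the site was taken as the guide, and which strand was loaded was not measured. Both sequences are shown because the MYOF knockdown rests on them, with the guide seed and its match in capitals, 5′ to 3′.
MYOF mRNA site: ccctgtctggaATGAGATt
Guide strand: aAUCUCAUuccagacaggg
Sites with the same seed match, read from the reference transcripts, were present in several of the transcripts that fell most. They are shown beside the MYOF site for the transcripts described below, with the bases that continue the match to the guide from its seed in capitals.
BECN1, coding sequence, chr17:42814595-42814613: cgtggaaTGGAATGAGATt
EI24, 3′ UTR, chr11:125584262-125584280: agcctgaagagATGAGATa
GCLM, 3′ UTR, chr1:93888520-93888538: tcctgtcattgATGAGATa
ARL10, 3′ UTR, chr5:176372913-176372931: catgaatgacAATGAGATa
RFLNA, coding sequence, chr12:124311907-124311925: ggaacccacgcATGAGATc
The same letters also stood in transcripts that were not lower. WWP2 is shown for a run of 13 bases that starts at the seed, and SLC7A11 and THBD because they were among the largest rises.
WWP2, coding sequence, chr16:69798803-69798821: gcttcTCTGGAATGAGATc
SLC7A11, 3′ UTR, chr4:138165510-138165528: catttaatgctATGAGATa
THBD, 3′ UTR, chr20:23045903-23045921: atgcaaatgctATGAGATg

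Library totals lay between 12728432 and 19847210 reads over the 6 libraries, with 19144 to 23060 genes holding at least 1 read. Mitochondrial transcripts took 4.72, 3.04 and 2.90% of the reads in siMYOF replicates 1 to 3, against 3.81, 2.84 and 3.21% in siGL3 replicates 1 to 3. In a principal component analysis of the 6 libraries the first component (47.5% of the variance) separated the early pair from the late libraries and the second (37.9%) separated siMYOF from siGL3. The line was checked against markers of ductal carcinoma, of which KRT18, KRT8, KRT19 and SOX9 were abundant, while KRT7 reached at most 6.55 normalised counts. Most markers of other cell types were near 0. The fibroblast genes DCN, LUM, FAP and POSTN and the endothelial genes CDH5 and CLDN5 had no read, PTPRC reached at most 2.28 and PECAM1 at most 1.13 normalised counts. Sums were taken only over markers with a mean of at least 5 normalised counts over the 12 libraries. These were 2 of 9 fibroblast, 2 of 9 leukocyte and 1 of 7 endothelial markers. The fibroblast sum (THY1 and PDGFRB) was 531 to 1152 with siMYOF and 454 to 1334 with siGL3, most of it THY1. The leukocyte sum (CD14 and CD68) was 13.8 to 27.3 and 11.4 to 35.01. The endothelial marker, EGFL7, had 65.2 to 76.6 and 117 to 203.

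MYOF itself had 3470.2, 2372 and 2003 in siMYOF libraries, against 12786, 20169 and 17823 in siGL3 libraries (normalised counts, replicates 1 to 3 in this order here and below). Every siMYOF value was below every siGL3 value. The means were 2615 ± 763 with siMYOF and 16926 ± 3772 with siGL3 (SD, n = 3 each), so that 15.5% of the siGL3 level was left, and the log2 fold change was -2.71 ± 0.23 (SE) with a limma adjusted p of 2.41e-05. The transcript is the 61st most abundant of all tested genes in siGL3 libraries. The reduction was smaller in the early pair (log2 fold change -1.88) than in the late libraries (-3.12), and this difference passed its own test (adjusted p = 0.011, limma with a batch interaction over 12 libraries), with 1 early library per group.

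Of 14720 genes with a mean of at least 5 normalised counts, 7932 passed an adjusted p of 0.05 (53.9%), 4126 of them higher with siMYOF (28% of all tested genes) and 3806 lower (25.9%). Changes of at least 2-fold were fewer, with 697 genes higher (4.74%) and 966 lower (6.56%), and 76 genes were at least 4-fold higher and 109 at least 4-fold lower. No overlap between the 3 siMYOF and the 3 siGL3 values was seen for 6022 genes (40.9%). The median log2 fold change over all tested genes was 0.01, and the central 50% lay between -0.40 and 0.37. Of the genes past the threshold 52.0% were higher. With libraries scaled by their total reads in place of the deposited size factors, 7946 genes passed, 40.1% of them higher (3189 higher and 4757 lower), and the median moved to -0.10, so that the split between rises and falls depends on the scaling. The number of genes past the threshold was 5425 without the batch term in the fit. A DMSO or WJ460 library was never set against a siRNA library here.

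The largest and the most abundant changes below were chosen among genes past the threshold without overlap between the groups, so their separation is part of the choice. The largest rises spanned low and high expression levels in siGL3 cells. PRDM1, which encodes the transcriptional repressor Blimp-1, had 163, 137 and 174 in siMYOF libraries, against 6.72, 14.7 and 5.61 in siGL3 libraries, the largest rise of all genes named here (log2 fold change 4.09 ± 0.27, limma adjusted p = 7.81e-10). MYL9, a regulatory light chain of non-muscle and smooth muscle myosin, had 1506, 1267 and 1429 in siMYOF libraries, against 144, 98.2 and 124 in siGL3 libraries (log2 fold change 3.52 ± 0.19, limma adjusted p = 1.76e-10). In both genes the lowest siMYOF library was several-fold above the highest siGL3 library. SPOCD1, known in mouse for a role in the silencing of transposons in germ cells, had 112, 167 and 205 in siMYOF libraries, against 9.41, 12.4 and 9.36 in siGL3 libraries (log2 fold change 3.80, limma adjusted p = 2.79e-08). PRRG4, a membrane protein with a vitamin K-dependent Gla domain, had 378, 492 and 554 in siMYOF libraries, against 23.5, 66.6 and 49.6 in siGL3 libraries (log2 fold change 3.42, limma adjusted p = 1.3e-09). The direction was the same in both batches, with early and late values of 4.41 and 3.93 for PRDM1 and 3.38 and 3.59 for MYL9.

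Several of the other large rises were of secreted or surface proteins. Thrombomodulin (THBD), the endothelial anticoagulant receptor, had 60.2, 143 and 149 in siMYOF libraries, against 2.02, 18.1 and 23.4 in siGL3 libraries (log2 fold change 3.29, limma adjusted p = 5.16e-08). CEMIP, a protein required for the breakdown of hyaluronan, had 97.1, 351 and 382 in siMYOF libraries, against 12.1, 48.6 and 52.4 in siGL3 libraries (log2 fold change 2.86, limma adjusted p = 2.95e-05). In each group the early library was lower than the late ones. ULBP2, a ligand of the natural killer cell receptor NKG2D, had 88.4, 125 and 165 in siMYOF libraries, against 9.41, 20.3 and 24.3 in siGL3 libraries (log2 fold change 2.79, limma adjusted p = 7.23e-09). The groups did not overlap for any of them, as the choice required. The cystine/glutamate antiporter SLC7A11 had 1128, 924 and 928 in siMYOF libraries, against 137, 154 and 119.8 in siGL3 libraries (log2 fold change 2.85, limma adjusted p = 3.6e-06). KBTBD8, an adaptor of a CUL3 ubiquitin ligase, had 132, 123 and 125 in siMYOF libraries, against 21.5, 20.3 and 19.7 in siGL3 libraries (log2 fold change 2.57, limma adjusted p = 8.3e-09), with siGL3 values close to each other. The remaining largest rises were GLIPR1, KRT15, XDH (xanthine dehydrogenase), TMCC3, PLAU, TTC9B, HECA, CREB5, DLL4, EGR1 and MMP1, with log2 fold changes between 2.31 and 2.84. Of these, MMP1, a collagenase, depended on the batch (below).

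Of the abundant and clearly separated genes, MYOF did not fall most. EI24, an endoplasmic reticulum membrane protein needed for autophagy, had 444, 547 and 546 in siMYOF libraries, against 4283, 4682 and 4710.0 in siGL3 libraries (log2 fold change -3.16 ± 0.06, limma adjusted p = 2.84e-17). BECN1, the Beclin-1 subunit of the class III phosphatidylinositol 3-kinase complex that starts autophagosome formation, had 75.4, 68.3 and 78.8 in siMYOF libraries, against 397, 523 and 468 in siGL3 libraries (log2 fold change -2.62 ± 0.10, limma adjusted p = 1.26e-12). The siMYOF values of both genes were far below the lowest siGL3 value, and both transcripts hold a guide seed match, shown above. MYOF ranked 14th among all tested genes by the size of its fall. Periplakin (PPL), a plakin that links keratin filaments to desmosomes, had 34.1, 44.4 and 46.6 in siMYOF libraries, against 308, 409.9 and 390.2 in siGL3 libraries (log2 fold change -3.12, limma adjusted p = 2.79e-11). The epithelial keratin KRT80 had 42.0, 30.7 and 39.9 in siMYOF libraries, against 257, 279 and 293 in siGL3 libraries (log2 fold change -2.86, limma adjusted p = 1.97e-11). Refilin A (RFLNA), a filamin-binding protein, had 48.6, 30.7 and 38.8 in siMYOF libraries, against 442, 282 and 212 in siGL3 libraries (log2 fold change -2.91, limma adjusted p = 2.26e-09). None of the 3 genes overlapped between groups, as the choice required. PPL and KRT80 also hold the seed match in the coding sequence, and in both the 19-base window that holds it spans an exon junction.

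Among the further large falls were genes of transport, matrix and metabolism. ABCC3, an organic anion exporter also known as MRP3, had 199, 196 and 225 in siMYOF libraries, against 1284, 1101 and 992 in siGL3 libraries (log2 fold change -2.43, limma adjusted p = 5.93e-13). GCLM, the modifier subunit of the enzyme that limits glutathione synthesis, had 207, 269.8 and 232 in siMYOF libraries, against 1258, 1104 and 1091 in siGL3 libraries (log2 fold change -2.28, limma adjusted p = 1.91e-12). CSF1, the growth factor of macrophages, had 284, 347 and 295 in siMYOF libraries, against 1277, 1393 and 1375 in siGL3 libraries (log2 fold change -2.13, limma adjusted p = 1.4e-11). In each the siMYOF and siGL3 ranges lay far apart. The matrix proteins EFEMP2 (fibulin-4) and COL7A1 (collagen of anchoring fibrils) had log2 fold changes of -2.54 and -2.31, argininosuccinate synthase (ASS1) of -2.23 and the p38 MAP kinase kinase MAP2K6 of -2.09. CAPN12, FBF1, CCDC24, ARL10, RIDA, OLFML2A and CORO2A, the rest of the largest falls, lay between -2.63 and -2.06.

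Of genes with high counts, those at least 2-fold higher were led by cofilin (CFL1), which severs actin filaments and had 27754, 39826 and 42799 in siMYOF libraries, against 9236, 20549 and 21719 in siGL3 libraries (log2 fold change 1.17, limma adjusted p = 1.51e-08). Its highest siGL3 library was below its lowest siMYOF library, yet the early pair differed more (1.59) than the late libraries (0.97). Vinculin (VCL), a linker of integrins to actin, had 17862, 22201 and 19443 in siMYOF libraries, against 6932, 9019 and 7591 in siGL3 libraries (log2 fold change 1.34, limma adjusted p = 1.76e-10). Integrin alpha 2 (ITGA2), ERRFI1 (a feedback inhibitor of EGFR), IGF2R (the receptor that carries lysosomal enzymes), TPM4, BZW1, the amino acid transporter SLC38A2, CDCP1 (a surface substrate of SRC kinases) and PLAU, also among the largest rises, were the others, with 2.44 for PLAU, 1.80 for ERRFI1, 1.41 for IGF2R and 1.78 for CDCP1. The abundant genes at least 2-fold lower were led by the ribosomal protein gene RPS3, which had 7916, 9112 and 9135 in siMYOF libraries, against 17104, 21659 and 23148 in siGL3 libraries (log2 fold change -1.23, limma adjusted p = 1.5e-11). SEPT2, a septin filament subunit, had 4409, 3845 and 3598 in siMYOF libraries, against 10831, 8715 and 8220.3 in siGL3 libraries, and TGOLN2, a marker protein of the trans-Golgi network, had 1989.5, 1844 and 1865 in siMYOF libraries, against 5973, 6261 and 5261 in siGL3 libraries. The groups did not overlap in any of the 3, as the choice required. CLU (clusterin), MFGE8, YKT6, MAGED1 and ZNF664 completed this group beside MYOF and EI24, with log2 fold changes between -1.53 and -1.03.

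**Figure D1:**
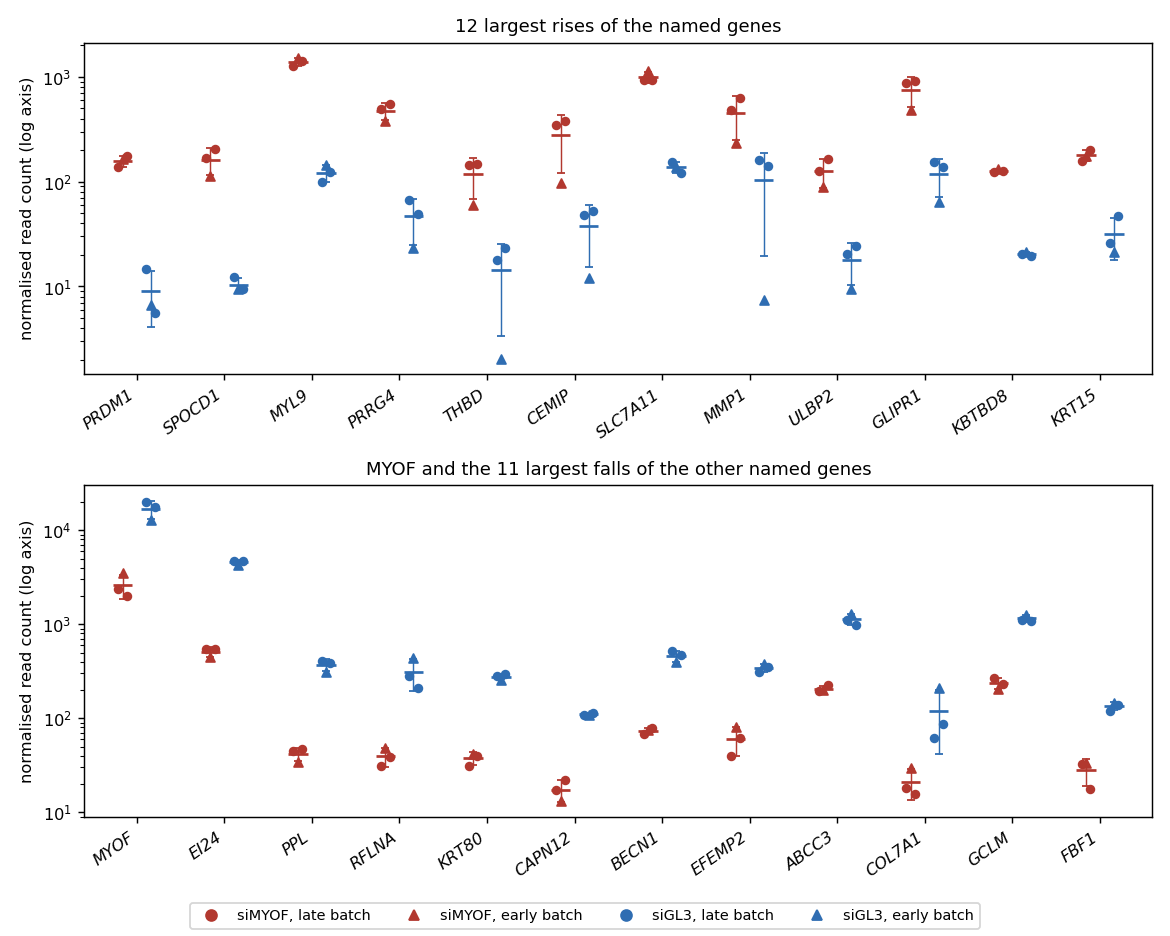
Normalised read counts on a log axis of the 12 largest rises (top) and of MYOF with the 11 largest falls (bottom), for siMYOF (red) and siGL3 (blue) libraries. Triangles are the early libraries and circles the late ones, bars are the mean of 3 libraries with 1 SD. The genes were chosen for no overlap between the groups, so the separation of the siMYOF and siGL3 values is part of the choice. The early siGL3 library of MMP1 (7.39) and THBD (2.02) lies well below the late ones.

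Genes were then read by lists of known pathways and families, each described by the members that passed the test in either direction and by its median, beside 28% higher, 25.9% lower and a median of 0.01 over all tested genes. ATF4 targets, immediate-early factors and ERK feedback genes held mostly rises, and collagens, annexins and S100 proteins held more falls than rises. Under scaling by total reads, lists with medians between 0 and 0.10 had medians below 0, and lists with medians above 0.10 stayed above 0. The counts past the threshold moved toward falls in many lists. They are given for part of the lists, and a list without them was not necessarily stable.

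**Figure D2:**
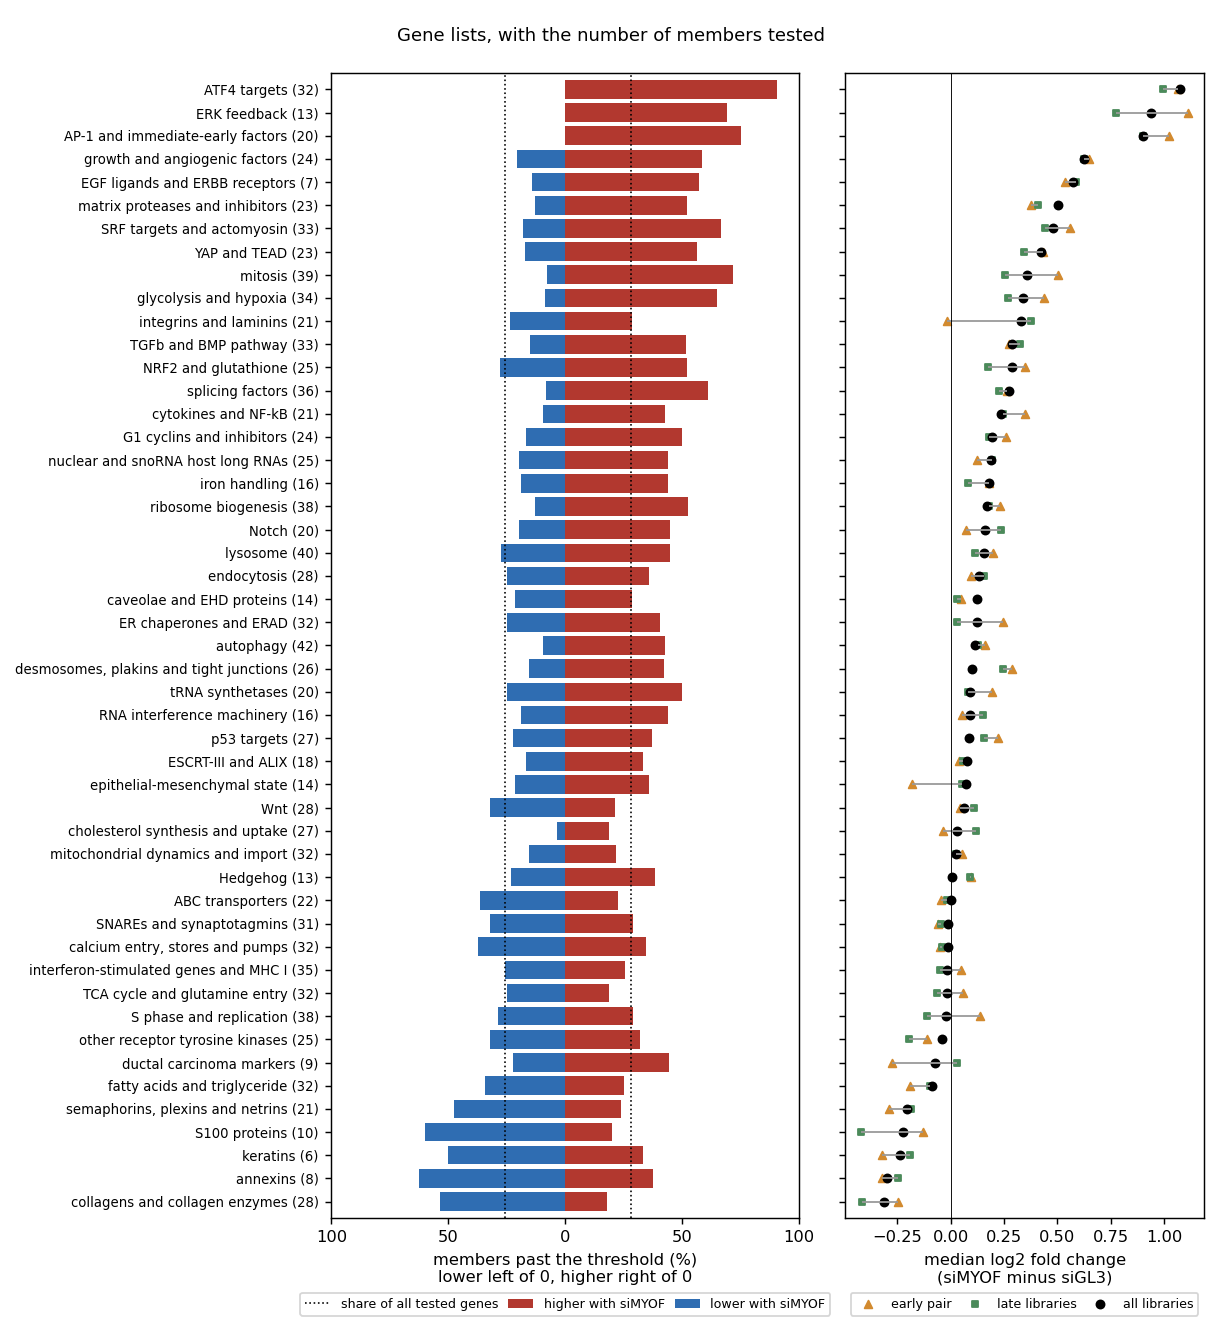
Left, share of the tested members of each gene list that passed the threshold higher (red) or lower (blue) with siMYOF, with dotted lines at the shares over all tested genes (28% and 25.9%). Right, median log2 fold change of each list (siMYOF minus siGL3) in all libraries, the early pair and the late libraries. ATF4 targets (29 of 32 higher) and immediate-early factors (15 of 20 higher) are among the 3 lists of highest median, and collagens (15 of 28 lower) have the lowest median of the lists plotted, which have at least 6 tested members and are ordered by median.

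Membrane trafficking and repair genes, the family myoferlin belongs to by function, moved in both directions. Dysferlin (DYSF), which reseals torn muscle membranes, was close to its detection limit and had 1.45, 0 and 3.33 in siMYOF libraries, against 8.74, 18.1 and 17.8 in siGL3 libraries, with every siMYOF value below every siGL3 value (log2 fold change -2.79, limma adjusted p = 0.000584, and -2.07 without siMYOF replicate 2). The other ferlin tested, the pseudogene transcript FER1L4, had 67.4, 6.83 and 9.99 in siMYOF libraries, against 161, 15.8 and 9.36 in siGL3 libraries and did not pass (log2 fold change -0.75, limma adjusted p = 0.0703, with adjusted p-values of 0.0432 without siMYOF replicate 3 and 0.0263 without siGL3 replicate 3). Among the annexins, calcium-dependent membrane binders that gather at wounds, 3 of 8 were higher and 5 lower (median -0.30). ANXA11 had 1392, 1687 and 1718 in siMYOF libraries, against 2663, 3485 and 3855 in siGL3 libraries (log2 fold change -1.05, limma adjusted p = 2.83e-10). ANXA6 and ANXA2 had log2 fold changes of -0.53 and -0.24 (adjusted p = 1.13e-06 and 0.00063, limma), while ANXA7 had 3635, 4128 and 4234 in siMYOF libraries, against 2665, 2846 and 2815 in siGL3 libraries (log2 fold change 0.52, limma adjusted p = 6.95e-07). ANXA11 and ANXA7 thus moved in opposite directions without overlap. Of 10 genes in the list of S100 proteins, small calcium-binding partners of annexins, 2 were higher and 6 lower (median -0.22). S100A4 had 575, 356 and 309.6 in siMYOF libraries, against 1180.2, 724 and 722 in siGL3 libraries (log2 fold change -1.09, limma adjusted p = 1.7e-09). S100A11 was higher by 0.47 with overlapping libraries.

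Caveola genes gave 4 higher and 3 lower of 14, and 1 higher and 5 lower with total-read scaling. The caveolins, which coat these flask-shaped pits, went apart, with CAV1 higher (10571, 7800.1 and 7204 with siMYOF and 8023, 5533 and 4989.8 with siGL3; log2 fold change 0.47, limma adjusted p = 8.86e-06) and CAV2 lower (883, 676 and 646 with siMYOF and 1713, 1084 and 1059 with siGL3; log2 fold change -0.78, limma adjusted p = 2.75e-08). The CAV1 groups overlapped across batches, and within each batch siMYOF was higher. The ESCRT-III machinery, which cuts membrane necks from the cytosolic side, had 6 of 18 higher and 3 lower (5 and 5 with total-read scaling), with CHMP4C at 358, 351 and 374 in siMYOF libraries, against 133, 185 and 185 in siGL3 libraries (log2 fold change 1.12, limma adjusted p = 2.46e-07) and CHMP2A at 1062, 1183 and 1327 in siMYOF libraries, against 1923, 2101 and 2437 in siGL3 libraries (log2 fold change -0.85, limma adjusted p = 1.52e-08). ALIX (PDCD6IP), which recruits ESCRT-III, was higher by 0.36 without overlap.

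Fusion proteins showed 9 of 31 higher and 10 lower (7 and 14 with total-read scaling). Synaptotagmin 11 (SYT11), which lacks calcium binding, had 1235, 1557 and 1457 in siMYOF libraries, against 422, 656 and 549 in siGL3 libraries (log2 fold change 1.399, limma adjusted p = 3.63e-10). Syntaxin 4 (STX4), the plasma membrane SNARE of secretion, had 409, 280.0 and 289.6 in siMYOF libraries, against 723, 731 and 810.4 in siGL3 libraries (log2 fold change -1.23, limma adjusted p = 7.89e-09). YKT6, a lipid-anchored SNARE of the Golgi and of autophagosomes, had 1598, 1813 and 1852 in siMYOF libraries, against 4619.8, 4959 and 5113 in siGL3 libraries (log2 fold change -1.48, limma adjusted p = 6.95e-13). For all 3 the groups were separate. The endocytosis list had 10 of 28 higher and 7 lower, among them endophilin A2 (SH3GL1, 0.99) and the recycling GTPase RAB35 (0.79, 2253, 2251 and 2267 with siMYOF and 1279.6, 1282 and 1357 with siGL3). Genes of calcium entry, stores and pumps gave 11 of 32 higher and 12 lower (8 and 14 with total-read scaling). The calmodulin genes CALM2 (0.71) and CALM3 (-0.64), which encode the same protein, moved in opposite directions. ORAI2, a store-operated channel subunit, had 665, 843 and 926 in siMYOF libraries, against 1542, 1659.9 and 1790.2 in siGL3 libraries (log2 fold change -1.05, limma adjusted p = 3.32e-09).

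Growth factor ligands were more often higher than lower. Of 7 EGF-family ligands and receptors tested, 4 were higher and 1 lower (median 0.57). Heparin-binding EGF (HBEGF) had 790.0, 732 and 972 in siMYOF libraries, against 132, 227 and 265 in siGL3 libraries (log2 fold change 2.04 ± 0.15, limma adjusted p = 9.89e-09). The other EGFR ligand EREG had 28.3, 23.9 and 26.6 in siMYOF libraries, against 4.03, 9.03 and 7.49 in siGL3 libraries (log2 fold change 1.85, limma adjusted p = 0.000728). The receptor EGFR itself was higher with 4657, 6331 and 5870.4 in siMYOF libraries, against 3208, 4381 and 3756 in siGL3 libraries (log2 fold change 0.57, limma adjusted p = 8.4e-07). All 3 were separate between the groups, and the late libraries alone gave 1.78 for HBEGF and 0.59 for EGFR. Among other receptor tyrosine kinases 8 of 25 were higher and 8 lower (6 and 9 with total-read scaling). The hepatocyte growth factor receptor MET (1416, 2007 and 1761 with siMYOF and 614, 994 and 767 with siGL3; log2 fold change 1.14, limma adjusted p = 3.55e-09) and the ephrin receptor EPHA2 (1.01) rose, and AXL (1474, 2348 and 2303 with siMYOF and 2507, 4207 and 4321 with siGL3; log2 fold change -0.84, limma adjusted p = 2.87e-09) and FGFR4 (-1.74) fell.

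The list of growth and angiogenic factors had 14 of 24 higher and 5 lower (median 0.62). Angiopoietin 2 (ANGPT2), which loosens vessels, had 81.9, 74.0 and 63.2 in siMYOF libraries, against 15.5, 26.0 and 17.8 in siGL3 libraries (log2 fold change 1.86, limma adjusted p = 4.28e-05). ANGPTL4 had 1408, 949 and 939 in siMYOF libraries, against 412, 303 and 396 in siGL3 libraries (log2 fold change 1.55, limma adjusted p = 2.39e-08). The vessel growth factor genes VEGFA and VEGFB differed in direction. VEGFA had 1259.6, 633 and 585 in siMYOF libraries, against 693, 394 and 348 in siGL3 libraries (log2 fold change 0.76, limma adjusted p = 1.07e-05), with a higher early than late library in each group and an adjusted p of 0.0632 without the batch term, and VEGFB had 214, 281 and 257 in siMYOF libraries, against 464, 685 and 893 in siGL3 libraries (log2 fold change -1.40, limma adjusted p = 1.11e-08), with no overlap. The platelet-derived factor PDGFA fell, at -1.47.

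ERK feedback genes, which are transcribed when the kinase ERK is active and damp it, had 9 of 13 higher and none lower (median 0.94, 1.11 for the early pair and 0.77 for the late libraries). The nuclear ERK phosphatase DUSP5 had 2359.8, 1924 and 2169 in siMYOF libraries, against 339, 652 and 721 in siGL3 libraries (log2 fold change 1.98, limma adjusted p = 1.87e-05). DUSP6 in the cytoplasm had 1293, 1239.5 and 1094 in siMYOF libraries, against 442, 683 and 618 in siGL3 libraries (log2 fold change 1.08, limma adjusted p = 1.89e-07). The inhibitors SPRED2 and SPRY4 were higher by 0.97 and 1.01. The siMYOF values were all above the siGL3 values in these 4 genes, and the early pair gave the larger rise, 2.79 against 1.57 in the late libraries for DUSP5. With total-read scaling the list gave 8 higher and 1 lower. Immediate-early transcription factors, the first genes that a growth factor switches on, had 15 of 20 higher and none lower (median 0.90). EGR1 had 1143, 617 and 608 in siMYOF libraries, against 188, 125 and 147 in siGL3 libraries (log2 fold change 2.31 ± 0.13, limma adjusted p = 9.94e-11), with its highest values in the early library of each group. KLF4 had 141, 142 and 148 in siMYOF libraries, against 40.3, 35.01 and 50.5 in siGL3 libraries (log2 fold change 1.77, limma adjusted p = 5.03e-07). The AP-1 subunit FOSL1 had 5769, 5994 and 6228 in siMYOF libraries, against 2821, 4197 and 4753 in siGL3 libraries (log2 fold change 0.65, limma adjusted p = 9.4e-06), both without overlap. ATF3, JUN and FOSB rose by 1.78, 0.62 and 1.07.

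SRF targets and actomyosin genes had 22 of 33 members higher and 6 lower (median 0.48, counts of 20 and 8 with total-read scaling). SRF is a transcription factor that binds the CArG box, letters CC and GG around 6 A or T, and is switched on when free actin becomes scarce. SRF had 2037, 1937 and 1996 in siMYOF libraries, against 899.9, 885 and 894 in siGL3 libraries (log2 fold change 1.16 ± 0.07, limma adjusted p = 1.45e-10), with values close to each other within each group. Zyxin (ZYX), a focal adhesion protein, had 5858, 9018 and 11262 in siMYOF libraries, against 1007, 2300.2 and 2896 in siGL3 libraries (log2 fold change 2.16, limma adjusted p = 2.45e-09). Calponin 1 (CNN1) had 79.7, 69.4 and 82.1 in siMYOF libraries, against 12.8, 13.6 and 13.1 in siGL3 libraries (log2 fold change 2.46, limma adjusted p = 2.08e-06). Tropomyosin 4 (TPM4) had 17305, 14136 and 13978 in siMYOF libraries, against 4949, 5272 and 5284 in siGL3 libraries (log2 fold change 1.54, limma adjusted p = 6.44e-12). No siGL3 value of these genes reached a siMYOF value. The cytoplasmic actins went apart. Gamma-actin (ACTG1) had 70642, 87549 and 97398 in siMYOF libraries, against 37368, 60157 and 66855 in siGL3 libraries (log2 fold change 0.67, limma adjusted p = 2.47e-07). Beta-actin (ACTB) had 43825, 48696 and 50721 in siMYOF libraries, against 52027, 79367 and 83739 in siGL3 libraries (log2 fold change -0.56, limma adjusted p = 3.57e-06). Tropomyosin 3 (TPM3) and the SRF coactivator MRTFB were also lower (-0.65 and -0.80).

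A CArG box stood in the promoter window, 250 bases before to 50 after the RefSeq start, of 6 of 29 matched members of this list (20.7%) and in 1.03% of the 10327 windows matched to tested genes, and its share was 2.56% among promoters of genes at least 2-fold higher (12 of 469), 0.163% among those at least 2-fold lower (1 of 614), 1.58% among all genes past the threshold higher and 0.572% among all lower. The windows are shown for EGR1 and for 5 of the 6 list members, all but FHL2 (0.40), GRCh38, on the strand of the gene, with the box in capitals.
EGR1, chr5:138465366-138465391: cggtcctgCCATATTAGGgcttcctg
SRF, chr6:43171231-43171256: ggggctcaCCATATAAGGagcggcct
TPM4, chr19:16067357-16067382: tcctaggtCCAAATAAGGcgagggct
ACTG1, chr17:81512876-81512901: aaagatcgCCATATATGGacatgttc
FLNA, chrX:154374711-154374736: caattttaCCAATTAAGGctttctcg
CNN2, chr19:1026511-1026536: cctccaggCCTTATAAGGacatttgc
Counted from the start site, the first base of the box shown lay at -105 in EGR1, -30 in SRF, -173 in TPM4 and -94 in ACTG1 and FLNA. EGR1 and SRF each held another box, not shown, at -83 and -10. FLNA, the actin crosslinker filamin A, rose by 0.91 (limma adjusted p = 2.35e-09), while CNN2, with a box at -89, was lower at -0.31 (limma adjusted p = 0.00066, and 0.252 without the batch term). Both genes overlapped between groups across batches. Genes with a CArG box in the window had a median of 0.27 (106 genes, 47.2% higher) and genes without one a median of 0.02 (10221 genes, 30.5% higher). A match describes letters in the window and is not a site shown to be bound.

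YAP and TAZ are coactivators of TEAD transcription factors that respond to cell spreading. Their list had 13 of 23 higher and 4 lower (median 0.42, counts of 9 and 5 with total-read scaling). CCN2, a matricellular target gene, had 6137, 3882 and 3488 in siMYOF libraries, against 952, 1486 and 1265 in siGL3 libraries (log2 fold change 1.84, limma adjusted p = 0.000769). AMOTL2 had 1238, 1099.5 and 1048 in siMYOF libraries, against 492, 691 and 673 in siGL3 libraries (log2 fold change 0.88, limma adjusted p = 7.8e-06). YAP1 itself had 4339.9, 5615 and 5368 in siMYOF libraries, against 3213, 3906 and 3410.1 in siGL3 libraries (log2 fold change 0.54, limma adjusted p = 1.75e-06). All 3 were above siGL3 in every library. The other classic target CCN1 had 9794, 8377 and 8589 in siMYOF libraries, against 6375, 8914 and 9273 in siGL3 libraries and did not pass (log2 fold change 0.14, limma adjusted p = 0.385). TEAD2 was lower (-1.14). In the TGFb and BMP pathway 17 of 33 were higher and 5 lower (median 0.29). The ligand TGFB3 had 611, 652 and 699 in siMYOF libraries, against 161, 219 and 219 in siGL3 libraries (log2 fold change 1.72, limma adjusted p = 4.86e-07). The receptor-degrading ligase SMURF2 had 1057, 819.5 and 721 in siMYOF libraries, against 456, 308 and 298 in siGL3 libraries (log2 fold change 1.298, limma adjusted p = 3.1e-09). The type II receptor TGFBR2, without which the ligands cannot signal, had 912, 886 and 778 in siMYOF libraries, against 1788, 1832 and 1604 in siGL3 libraries (log2 fold change -1.02, limma adjusted p = 3.19e-09). The inhibitory SMAD6 fell, at -1.51.

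Adhesion receptors moved in both directions. Of 21 integrins and laminins, 6 were higher and 5 lower (median 0.33, with -0.02 for the early pair and 0.37 for the late libraries), and 4 were higher and 7 lower with total-read scaling. The fibronectin receptor chain ITGA5 had 3003, 5648 and 6717 in siMYOF libraries, against 1121, 2166 and 2189 in siGL3 libraries (log2 fold change 1.47, limma adjusted p = 1.17e-11). The collagen receptor chain ITGA2 had 18357, 21169 and 19753 in siMYOF libraries, against 6901, 12487 and 10064 in siGL3 libraries (log2 fold change 1.05, limma adjusted p = 2.6e-07). ITGB4, the laminin receptor chain of hemidesmosomes, had 7.97, 21.6 and 25.5 in siMYOF libraries, against 65.2, 79.0 and 80.5 in siGL3 libraries (log2 fold change -2.11, limma adjusted p = 2.62e-07). ITGA3, another laminin receptor chain, had 855, 1368 and 1513 in siMYOF libraries, against 1528, 2904 and 3079 in siGL3 libraries (log2 fold change -0.98, limma adjusted p = 3.06e-08). None of the 4 chains overlapped between groups. Collagens and the enzymes that modify them had 5 of 28 higher and 15 lower (median -0.31, counts of 3 and 16 with total-read scaling). Beside COL7A1, the collagen VI chains COL6A1 (199, 179 and 164 with siMYOF and 354, 331 and 387 with siGL3) and COL6A2 (102, 116 and 149.8 with siMYOF and 228, 273 and 307 with siGL3) fell, at -0.98 and -1.14. The crosslinking enzymes LOX (43.5, 33.0 and 44.4 with siMYOF and 9.41, 5.65 and 15.0 with siGL3; log2 fold change 1.99, limma adjusted p = 0.000162) and LOXL2 (267, 359.7 and 364 with siMYOF and 505, 584 and 620.5 with siGL3; log2 fold change -0.79, limma adjusted p = 3.45e-06) went in opposite directions.

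Matrix proteases and their inhibitors had 12 of 23 higher and 3 lower (median 0.50). Urokinase (PLAU), the protease that activates plasminogen, was the most abundant of them with 12638, 17893 and 20164 in siMYOF libraries, against 1663, 4072 and 4177 in siGL3 libraries (log2 fold change 2.44 ± 0.17, limma adjusted p = 9.33e-07). Its receptor PLAUR had 139, 217 and 243 in siMYOF libraries, against 30.2, 71.1 and 75.8 in siGL3 libraries (log2 fold change 1.81, limma adjusted p = 4.07e-08). The membrane protease ADAM9 had 5758, 4936 and 4713 in siMYOF libraries, against 2960.5, 2555 and 2305 in siGL3 libraries (log2 fold change 0.98, limma adjusted p = 1.29e-09). All were separate between groups, and in siGL3 the early library was the lowest for PLAU and PLAUR. Within the late libraries PLAU rose by 2.20 and PLAUR by 1.63. ADAMTS15, a secreted protease of aggrecan, fell, at -1.37.

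Epithelial genes moved in both directions. Of 6 keratins tested 2 were higher and 3 lower. KRT8 and KRT18 form a pair of filament partners, and here KRT8 had 2599.7, 3675 and 3859 in siMYOF libraries, against 5274, 6581 and 7781 in siGL3 libraries (log2 fold change -0.96, limma adjusted p = 2.83e-06). KRT18 had 11904, 21998 and 23408 in siMYOF libraries, against 5319, 13637 and 15304 in siGL3 libraries (log2 fold change 0.82, limma adjusted p = 8.01e-07), with an adjusted p of 0.0915 for KRT18 without the batch term. KRT8 was lower in every siMYOF library, and KRT18 was higher within each batch. KRT19 did not pass (log2 fold change -0.07, limma adjusted p = 0.513). Desmosome, plakin and tight junction genes had 11 of 26 higher and 4 lower. Plakoglobin (JUP) had 937, 1124 and 1087 in siMYOF libraries, against 1809, 1690.4 and 1734 in siGL3 libraries (log2 fold change -0.74, limma adjusted p = 2.51e-07). The spectraplakin MACF1, which links actin to microtubules, had 11459, 14897 and 13202 in siMYOF libraries, against 5862, 9057 and 7327 in siGL3 libraries (log2 fold change 0.84, limma adjusted p = 5.2e-08). Genes of the epithelial-mesenchymal state had 5 of 14 higher and 3 lower (3 and 3 with total-read scaling), with the repressor ZEB1 higher at 1313, 1529.7 and 1434 in siMYOF libraries, against 753, 1070.5 and 909 in siGL3 libraries (log2 fold change 0.66, limma adjusted p = 5.38e-07) and TGFBI, a secreted adhesion protein, higher by 0.92.

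ATF4 targets were the list with the largest share of rises, 29 of 32 with none lower and a median of 1.08, and 25 rose with total-read scaling. ATF4 is a transcription factor translated when the initiation factor eIF2 is phosphorylated under stress, and its targets supply amino acids and tRNA charging. ATF4 mRNA had 9070.5, 6237 and 6508 in siMYOF libraries, against 3286, 1715 and 1788 in siGL3 libraries (log2 fold change 1.73 ± 0.08, limma adjusted p = 1.1e-11). PPP1R15A (GADD34), which reverses eIF2 phosphorylation, had 1624, 1328 and 1544 in siMYOF libraries, against 322, 272 and 361 in siGL3 libraries (log2 fold change 2.24, limma adjusted p = 1.5e-11). SLC3A2, the heavy chain shared by SLC7A11 and other amino acid transporters, had 4088, 3888 and 4488 in siMYOF libraries, against 1059, 1292 and 1529 in siGL3 libraries (log2 fold change 1.70, limma adjusted p = 2.83e-10). PHGDH, which opens the serine pathway, had 5341, 6922 and 6738 in siMYOF libraries, against 1737, 3039 and 3059 in siGL3 libraries (log2 fold change 1.32, limma adjusted p = 4.25e-10). None of these genes overlapped between groups. The leucine sensor SESN2 and the hormone STC2 rose by 1.99 and 1.92, and DDIT3 (CHOP) had 835, 624 and 726 in siMYOF libraries, against 387, 281 and 348 in siGL3 libraries (log2 fold change 1.10, limma adjusted p = 7.45e-08). The 3 that did not pass were TRIB3 (log2 fold change 0.55, limma adjusted p = 0.216, and 0.0167 in the fit of the 6 siRNA libraries alone), SLC6A9 (log2 fold change 0.41, limma adjusted p = 0.122, and 0.0135 in that fit) and ASNS. Asparagine synthetase (ASNS) had 21.0, 4.55 and 6.66 in siMYOF libraries, against 14.8, 3.39 and 3.74 in siGL3 libraries (log2 fold change 0.50, limma adjusted p = 0.27).

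Cytosolic tRNA synthetases, part of which are ATF4 targets, had 10 of 20 higher and 5 lower, but 10 higher and 10 lower with total-read scaling. The seryl enzyme SARS had 4004, 4444 and 4726 in siMYOF libraries, against 1833, 2351 and 2634 in siGL3 libraries (log2 fold change 0.96, limma adjusted p = 1.61e-09). The leucyl enzyme LARS had 2686, 3536 and 3301 in siMYOF libraries, against 3955, 4577 and 4743 in siGL3 libraries (log2 fold change -0.48, limma adjusted p = 3.44e-06). ER chaperones and ERAD genes had 13 of 32 higher and 8 lower. The misfolding lectin EDEM1 had 1377, 864 and 852 in siMYOF libraries, against 645, 457 and 334 in siGL3 libraries (log2 fold change 1.12, limma adjusted p = 2.85e-08). The chaperone HSPA5 (BiP), the usual reporter of unfolded proteins, had 12604, 12883 and 13730.0 in siMYOF libraries, against 8368, 13501 and 15098 in siGL3 libraries and did not pass (log2 fold change 0.13, limma adjusted p = 0.327). The HSPA5 log2 fold change was 0.59 for the early pair and -0.10 for the late libraries.

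NRF2 and glutathione genes had 13 of 25 higher and 7 lower (median 0.29). The subunits of glutamate-cysteine ligase split. The catalytic subunit GCLC had 1892, 1778 and 1645 in siMYOF libraries, against 965, 980.1 and 954 in siGL3 libraries (log2 fold change 0.87, limma adjusted p = 6.12e-09), opposite to the fall of its partner GCLM. Thioredoxin reductase TXNRD1 was higher (0.61). The glutathione peroxidase of lipids GPX4 had 1653, 1529.7 and 1390.2 in siMYOF libraries, against 2506, 2112 and 2296 in siGL3 libraries (log2 fold change -0.60, limma adjusted p = 5.73e-07). Iron genes had 7 of 16 higher and 3 lower, but 4 higher and 5 lower with total-read scaling. The transferrin receptor TFRC, which brings iron into cells, had 5647, 5390.5 and 4883 in siMYOF libraries, against 10269, 11040.0 and 9116 in siGL3 libraries (log2 fold change -0.93, limma adjusted p = 1.99e-09). BMP6, which tells the liver of iron stores, had 2022, 2235 and 2443 in siMYOF libraries, against 860.2, 1031 and 1156 in siGL3 libraries (log2 fold change 1.14, limma adjusted p = 5.37e-10). The direction was the same in every library for both.

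The autophagy list, which holds EI24 and BECN1, had 18 of 42 members higher and 4 lower (median 0.11, counts of 10 and 6 with total-read scaling). The initiating kinase ULK1 had 775, 494 and 747 in siMYOF libraries, against 350.1, 234 and 278 in siGL3 libraries (log2 fold change 1.21, limma adjusted p = 2.32e-07). The conjugation factor ATG16L1 had 1686, 1616 and 1775 in siMYOF libraries, against 1100.2, 903 and 894 in siGL3 libraries (log2 fold change 0.81, limma adjusted p = 3.75e-08). The other falls were ATG10 (138, 141 and 124 with siMYOF and 323, 317 and 291 with siGL3; log2 fold change -1.20, limma adjusted p = 6.07e-08) and the fusion SNARE STX17 (-1.001). The 4 falls were at least 2-fold, and all 4 genes were lower in every siMYOF library. Lysosome genes had 18 of 40 higher and 11 lower, with acid sphingomyelinase (SMPD1) higher by 1.02 and beta-glucuronidase (GUSB) at 345, 290.2 and 285 in siMYOF libraries, against 696, 640.2 and 642 in siGL3 libraries (log2 fold change -1.11, limma adjusted p = 8.5e-10).

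Of 27 cholesterol genes 5 were higher and 1 lower (6 of 27 past the threshold, against 53.9% of all tested genes), and 5 higher and 4 lower with total-read scaling. The fall was that of the sterol reductase TM7SF2 (-1.77). Fatty acid and triglyceride genes had 8 of 32 higher and 11 lower (6 and 13 with total-read scaling). Perilipin 2 (PLIN2), the coat of lipid droplets, had 817, 779.7 and 824 in siMYOF libraries, against 228, 291 and 248 in siGL3 libraries (log2 fold change 1.66, limma adjusted p = 6.33e-10). The peroxisomal carrier SCP2 had 691, 699 and 589 in siMYOF libraries, against 2743, 2114 and 1868 in siGL3 libraries (log2 fold change -1.75, limma adjusted p = 1.1e-11). Both stood apart between the groups. ACADVL, which starts the oxidation of long fatty acids in mitochondria, was lower at -0.85.

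Glycolysis and hypoxia genes had 22 of 34 higher and 3 lower (median 0.34). Hexokinase 2 (HK2), the entry step, had 2133, 2452 and 2509 in siMYOF libraries, against 768, 1279 and 1122 in siGL3 libraries (log2 fold change 1.19, limma adjusted p = 1.97e-09). Lactate dehydrogenase A (LDHA) had 38734, 32757 and 29193 in siMYOF libraries, against 23670.0, 21866 and 22384 in siGL3 libraries (log2 fold change 0.56, limma adjusted p = 1.13e-06). NDRG1, a hypoxia-induced gene, had 196, 282 and 244 in siMYOF libraries, against 694, 994 and 924 in siGL3 libraries (log2 fold change -1.85, limma adjusted p = 6.42e-11), against the direction of the list. All 3 had separate groups. TCA cycle and glutamine genes had 6 of 32 higher and 8 lower (4 and 13 with total-read scaling). MPC1, a subunit of the mitochondrial pyruvate carrier, had 63.1, 72.8 and 91.0 in siMYOF libraries, against 217, 224 and 293 in siGL3 libraries (log2 fold change -1.68, limma adjusted p = 4.83e-09) and IDH2 was lower at -0.90. Of 32 genes of mitochondrial dynamics and import 7 were higher and 5 lower, but 7 higher and 10 lower with total-read scaling.

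Inflammation genes were mixed. Cytokine and NF-kB genes had 9 of 21 higher and 2 lower. NFKBIZ, a nuclear cofactor of NF-kB, had 417, 79.7 and 119 in siMYOF libraries, against 74.6, 27.1 and 23.4 in siGL3 libraries (log2 fold change 2.09, limma adjusted p = 1.24e-07). BIRC3, an inhibitor of cell death, had 1865, 1357 and 1339 in siMYOF libraries, against 487, 479 and 532 in siGL3 libraries (log2 fold change 1.59, limma adjusted p = 1.37e-09). The adhesion molecule ICAM1 rose by 1.23, opposite to CSF1. Interferon-stimulated and MHC class I genes had 9 of 35 higher and 9 lower (8 and 12 with total-read scaling). IFIT1 had 517, 403 and 339.5 in siMYOF libraries, against 193, 211 and 190.0 in siGL3 libraries (log2 fold change 1.06, limma adjusted p = 2.99e-06). STAT2, the factor that carries the interferon signal to the nucleus, had 249, 159 and 184 in siMYOF libraries, against 481, 521 and 429.5 in siGL3 libraries (log2 fold change -1.29, limma adjusted p = 1.08e-07). OAS3, which senses double-stranded RNA, had 383, 644 and 656 in siMYOF libraries, against 682, 1694 and 1554 in siGL3 libraries (log2 fold change -1.16, limma adjusted p = 9.46e-09). Both siRNA groups had received double-stranded RNA, so the comparison does not measure a response to transfection itself.

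Cell cycle genes are given by phase. Mitosis genes had 28 of 39 higher and 3 lower with small changes (median 0.36, 0.50 for the early pair and 0.25 for the late libraries, counts of 23 and 4 with total-read scaling). The kinetochore protein CENPF had 12034, 15749 and 13706 in siMYOF libraries, against 5807, 10007 and 8297 in siGL3 libraries (log2 fold change 0.81, limma adjusted p = 6.34e-06). The cytokinesis protein ANLN had 13554, 14868 and 13655 in siMYOF libraries, against 6727, 9623 and 8408 in siGL3 libraries (log2 fold change 0.78, limma adjusted p = 5.97e-08). S phase and replication genes had 11 of 38 higher and 11 lower (7 and 15 with total-read scaling). The replicative helicase subunits MCM6 and MCM7 fell, at -0.66 and -0.61, and GINS1, their partner, had 488, 352 and 328 in siMYOF libraries, against 889.8, 788 and 752 in siGL3 libraries (log2 fold change -1.07, limma adjusted p = 3.98e-09). Among G1 genes 12 of 24 were higher and 4 lower. The inhibitor CDKN1A (p21), also a p53 target, had 375, 692 and 849 in siMYOF libraries, against 125, 199 and 227 in siGL3 libraries (log2 fold change 1.76, limma adjusted p = 6.42e-06), CDKN1B (p27) rose by 0.91, and E2F1, the activator of S phase genes, had 522, 336 and 322 in siMYOF libraries, against 745, 707 and 742 in siGL3 libraries (log2 fold change -0.93, limma adjusted p = 8.57e-07). Of 27 p53 targets 10 were higher and 6 lower, with MDM2, the ligase of p53, lower at -0.48.

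Splicing factors had 22 of 36 higher and 3 lower (median 0.27, counts of 18 and 6 with total-read scaling), ribosome biogenesis genes 20 of 38 higher and 5 lower (median 0.17, 14 and 9). RRN3, which starts RNA polymerase I, had 3931, 4719 and 4459 in siMYOF libraries, against 2426, 2542 and 2531 in siGL3 libraries (log2 fold change 0.80, limma adjusted p = 6.2e-09). The RNA interference machinery had 7 of 16 higher and 3 lower. TNRC6A, the scaffold that silences transcripts bound by Argonaute, had 5994, 6975 and 6052 in siMYOF libraries, against 3012, 2588 and 1992 in siGL3 libraries (log2 fold change 1.34, limma adjusted p = 8.92e-07). AGO2, the Argonaute that cleaves siRNA targets, had 1929, 1998 and 1726 in siMYOF libraries, against 1371, 1427 and 1319 in siGL3 libraries (log2 fold change 0.46, limma adjusted p = 2.08e-05). AGO4 was lower at -1.10. Of 25 nuclear and snoRNA host long RNAs 11 were higher and 5 lower, led by MIR22HG, the host of miR-22, which had 781, 287 and 292 in siMYOF libraries, against 362, 58.7 and 77.7 in siGL3 libraries (log2 fold change 1.76, limma adjusted p = 5.65e-07). Its early libraries were above the late ones in both groups, and siMYOF was higher within each batch.

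Developmental pathways changed by component. In the Hedgehog list 5 of 13 were higher and 3 lower. The ligand SHH had 97.8, 95.6 and 109 in siMYOF libraries, against 42.3, 38.4 and 30.9 in siGL3 libraries (log2 fold change 1.42, limma adjusted p = 2.22e-06). GLI1, the usual reporter of pathway activity, had 182, 176 and 216 in siMYOF libraries, against 321, 367 and 339 in siGL3 libraries (log2 fold change -0.84, limma adjusted p = 2.33e-06). The receptor PTCH1, another reporter, had 185, 204 and 144 in siMYOF libraries, against 344, 296 and 239 in siGL3 libraries (log2 fold change -0.72, limma adjusted p = 0.0015). The ligand was thus higher and both reporters were lower, without overlap. The Notch list had 9 of 20 higher and 4 lower, with the ligand DLL4 at 65.2, 101.3 and 108 in siMYOF libraries, against 6.05, 29.4 and 25.3 in siGL3 libraries (log2 fold change 2.34, limma adjusted p = 1.91e-06), the target HEY1 at 154, 92.2 and 115 in siMYOF libraries, against 67.2, 41.8 and 29.0 in siGL3 libraries (log2 fold change 1.42, limma adjusted p = 1.44e-05) and the receptor NOTCH3 lower at -1.19. Of 28 Wnt genes 6 were higher and 9 lower. LEF1, a transcription factor of the pathway, had low counts of 13.05, 20.5 and 26.6 in siMYOF libraries, against 1.34, 4.52 and 4.68 in siGL3 libraries (log2 fold change 2.28, limma adjusted p = 1.67e-05). The receptor FZD4 was lower at -1.39. Semaphorins, plexins and netrins had 5 of 21 higher and 10 lower (median -0.21), with the receptor PLXND1 at 681, 869.6 and 919 in siMYOF libraries, against 1565, 1504 and 1324 in siGL3 libraries (log2 fold change -0.84, limma adjusted p = 5.18e-07). ABC transporters had 5 of 22 higher and 8 lower, ABCC3 among the latter (2 and 9 with total-read scaling).

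The siMYOF effect was set side by side in both batches. Of the 7932 genes past the threshold, 7872 had the same sign for the early pair and for the late libraries. Across the 14720 genes the early and late log2 fold changes had a Pearson correlation of 0.76, given as a description since genes are not independent and the early value rests on 1 library per group. The effect itself differed between batches for 39 genes (0.265% of those tested) in the fit of 12 libraries and for 3 in the fit of the 6 siRNA libraries. Of the 39, 32 had the early value above the late one and 7 below, and 1402 genes had an unadjusted p under 0.05. MMP1 had 235, 484 and 636 in siMYOF libraries, against 7.39, 163 and 142 in siGL3 libraries, which gave 4.81 for the early pair and 1.86 for the late libraries, against 2.84 over all libraries (limma adjusted p = 0.00203). ITPKB, a kinase of inositol trisphosphate, had 1273, 1674 and 1821 in siMYOF libraries, against 179, 628 and 614 in siGL3 libraries and rose by 2.82 for the early pair and 1.49 for the late libraries. FEM1A had 17.4, 319.8 and 318 in siMYOF libraries, against 8.06, 689 and 758 in siGL3 libraries. It was far lower in both early libraries than in the late ones, and did not pass over all libraries (log2 fold change -0.44, limma adjusted p = 0.359), although it was -1.18 in the late ones and passed without siMYOF replicate 1 (adjusted p = 1.305e-07) or siGL3 replicate 1 (1.16e-07). NUDT3 had 10.9, 425 and 418 in siMYOF libraries, against 7.39, 1134 and 1107 in siGL3 libraries, also very low in both early libraries, with log2 fold change -0.77, limma adjusted p = 0.0802 over all libraries and adjusted p-values of 4.90e-08 and 4.85e-08 without siMYOF replicate 1 and without siGL3 replicate 1.

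**Figure D3:**
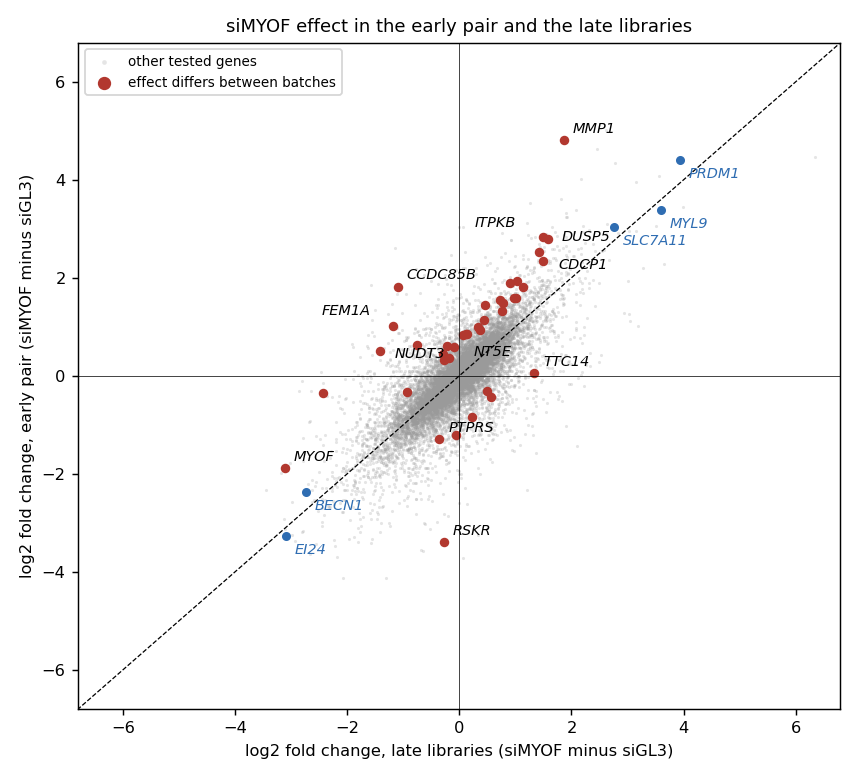
Log2 fold change of each tested gene (siMYOF minus siGL3) in the late libraries (x) and in the early pair (y), with the diagonal dashed. The 39 genes whose effect differed between batches are red, and PRDM1, MYL9, SLC7A11, BECN1 and EI24 are marked in blue. MYOF lies above the diagonal at -3.12 and -1.88, MMP1 at 1.86 and 4.81, and the blue genes lie close to the line.

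Guide seed matches, the letters ATGAGAT of the MYOF site, were counted in 1 annotated transcript per gene (GENCODE, GRCh38). They stood in 27.8% of the transcripts of genes at least 2-fold lower (267 of 960), in 20.03% of those at least 2-fold higher (138 of 689) and in 23.1% of all tested (3381 of 14665). Of the 19 largest falls other than MYOF, 7 held a match, against 3 of the 20 largest rises. Since long 3′ UTRs hold more matches by length alone, genes were compared within tertiles of 3′ UTR length. In the shortest tertile the median log2 fold change was -0.39 with a match (81 genes, 51.9% of them lower) and -0.09 without (4040 genes, 32.5% lower). In the middle tertile the medians were -0.09 with (365 genes, 40.5% lower) and 0.07 without (3745 genes, 24.6% lower), and in the longest tertile 0.04 with (1131 genes, 26.2% lower) and 0.16 without (2985 genes, 20.2% lower). Matches followed by an A in the mRNA had a median of -0.09 (482 genes, 36.5% lower). UTRs with a match were richer in A and T (median 61.1%) than UTRs without (56.5%), and the part of base composition in these differences was not tested.

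Not every transcript with a match was lower. Matches within coding sequences went with a median of -0.03 (1683 genes, 32.3% lower) and their absence with 0.04 (10664 genes, 26.1% lower). Coding matches were not compared within classes of length. For the passenger strand, with seed match AGACAGG, the medians were -0.14 with and -0.10 without a match in the shortest tertile, 0.01 and 0.07 in the middle tertile and 0.08 and 0.15 in the longest tertile. WWP2, whose site continues the guide match over 13 bases, had 349, 421 and 433 in siMYOF libraries, against 341, 396 and 402 in siGL3 libraries (log2 fold change 0.07, limma adjusted p = 0.47). In the transcripts searched, the longest run outside MYOF was one of 14 bases in TUB, guide bases 5 to 18. TUB was lower at -0.58 (limma adjusted p = 0.000604), with libraries that overlapped across batches. Of the large rises, SLC7A11 and THBD hold the match in their 3′ UTRs.

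**Figure D4:**
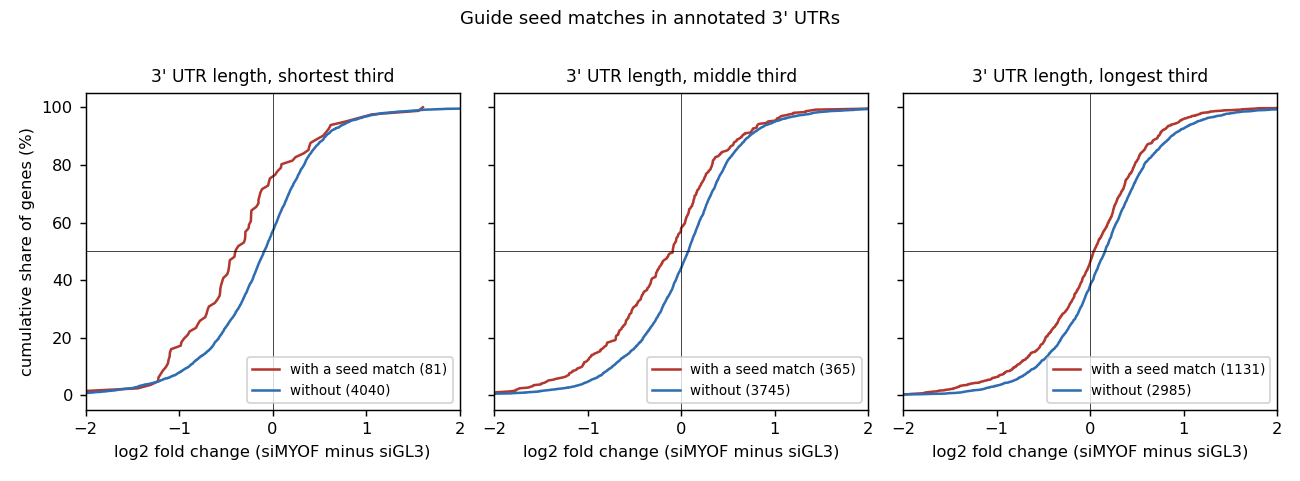
Cumulative share of genes (%) by log2 fold change (siMYOF minus siGL3) in tertiles of 3′ UTR length, for genes with a guide seed match in the 3′ UTR (red) and without (blue). The red curve lies to the left of the blue one around its middle in each tertile, with medians of -0.39 and -0.09 in the shortest tertile and 0.04 and 0.16 in the longest.

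Other motifs were counted in the same 10327 promoter windows, on both strands. TGANTCA, the AP-1 element, stood in 8.74% of windows of genes at least 2-fold higher (41 of 469), 5.21% of those at least 2-fold lower (32 of 614) and 4.36% of all. TGATGNAAT, the element of C/EBP and ATF heterodimers, stood in 4 windows of genes at least 2-fold higher (0.853%), in 0 of 614 of those lower and in 0.378% of all, and in 0 of 27 matched ATF4 targets, which says only that the letters are not in these 300 bases. GGAATG, the TEAD element, stood in 10.23% of windows of genes at least 2-fold higher, 14.2% of those lower and 10.7% of all, and in 6 of 17 windows of the YAP and TEAD list. TGACNNNGC, the antioxidant response core, which can share letters with TGANTCA, stood in 14.5% of the higher, 15.6% of the lower and 15.3% of all windows.

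The size and sign of the changes also went with properties of the transcripts. The 12373 protein-coding genes were set in quintiles by the GC content and the length of their annotated transcript. The median log2 fold change was 0.16 in the quintile of lowest GC content (median 38.3% GC, 42.3% of genes higher and 18.3% lower) and -0.16 in the quintile of highest GC content (median 62.3%, 17.1% higher and 35.4% lower). By length it was -0.12 in the shortest quintile (median 1340.0 bases) and 0.15 in the longest (median 7669 bases). Both gradients were present in the early pair (0.14 to -0.13 by GC content) and in the late libraries (0.18 to -0.18). Across genes the Pearson correlation of the log2 fold change was -0.20 with GC content and 0.15 with length, given as a description. Long non-coding RNAs were more often lower than higher (25.02% and 9.54% of 1499, median -0.24), protein-coding genes 26.9% lower and 31.4% higher, and the abundance of a gene went with its direction, from 9.10% higher and 16.6% lower in the lowest quintile of abundance to 45.7% higher and 23.0% lower in the highest. These properties overlap with the gene lists, and their part in the changes of the lists was not tested.

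**Figure D5:**
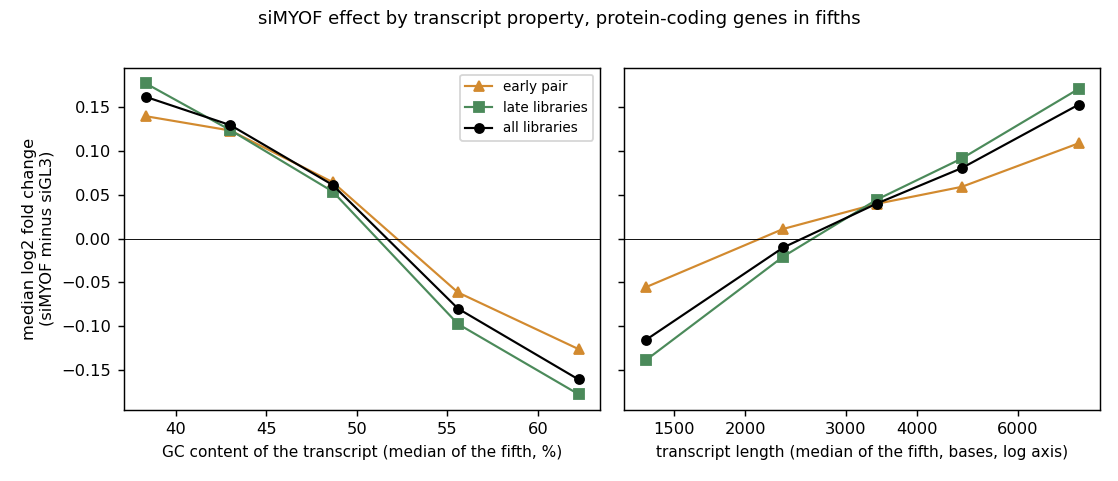
Median log2 fold change (siMYOF minus siGL3) of protein-coding genes in quintiles of transcript GC content (left, %) and transcript length (right, bases on a log axis), for the early pair, the late libraries and all libraries. The line goes down from 0.16 to -0.16 along GC content and up from -0.12 to 0.15 along length, in both batches.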

How the data were processed

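RNA was measured by poly(A)-selected, stranded RNA-seq in 3 siMYOF, 3 siGL3, 3 WJ460 and 3 DMSO libraries of PANC-1 cells. The authors aligned and quantified the reads with STAR and Salmon on GRCh38, and the deposited values are a signal, namely gene read counts divided by 1 size factor per library. Whole reads could be recovered for 100% of values (tolerance 0.001 reads), and edgeR on these reads was an alternative. The size factors assume that most genes do not change, so a shared shift of all genes would not be seen.

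Values were tested as log2(value + 1) with limma 3.58.1 (R 4.3.3, trend and robust), over all 12 libraries with 4 groups and the batch date, for 14720 of 60617 genes with a mean of at least 5, at a Benjamini-Hochberg adjusted p of 0.05. A fold change is on the log2(value + 1) scale and understates the change of low genes. The batch interaction was tested in the same way. The steps were tested on simulated data. Alternatives were edgeR 4.0.16, DESeq2 1.42.0, TMM or total-read scaling, pseudocounts of 0.5 and 5, other filters, no batch term, the late batch or the siRNA libraries alone, a replicate block and each siRNA library left out. Same-numbered siMYOF and siGL3 libraries deviated together (correlations of 0.82, 0.53 and 0.60), but late libraries of different number did so almost as much (0.49 and 0.45), and the replicate 2 minus 3 differences of the groups correlated at 0.13. The labels give the 2 libraries numbered 1 a shared batch. The numbers were taken to pair the samples in the replicate block alone. All other fits, among them the one behind the calls, left replicates 2 and 3 unpaired. The data tell the pairing of replicates 2 and 3 only weakly. The replicate block ended 5 calls among the named and listed genes (NT5E, ANXA1, EPHA4, NPM1 and SRSF1) and added 22. Replicates 2 and 3 of each group differed beyond sampling noise. No value column was left unmatched to a sample.

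Named genes were MYOF, the 20 largest rises and 20 largest falls past the threshold with a mean of at least 50 over the 6 siRNA libraries and no overlap, the 10 most abundant in each direction with a change of at least 2-fold, members of each list by smallest p or needed to describe it, genes whose effect differed between batches, and transcripts with long matches to the siRNA. The members and lists were chosen with earlier results of these data known. Promoter windows were RefSeq sequences (GRCh38.p14) for 10327 of 14720 genes, and seed matches came from GENCODE transcripts. Python 3.11.15, pandas 2.3.3, SciPy 1.17.1 and Matplotlib 3.10.9 were used. Genome coordinates are GRCh38, counted from 1. Some items are not reported here.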

Additional observations from a re-analysis of the deposited data

Results flagged for a closer look

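The siMYOF effect differed between the early pair and the late libraries, by the test of the batch interaction in limma, for 39 genes in the fit of 12 libraries and for 3 in the fit of the 6 siRNA libraries, and most of those with the smallest p are given here with the early minus the late log2 fold change. The early value rests on 1 library per group. Genes with a larger value in the early pair were MMP1 (2.95), CCDC85B (2.92), FEM1A (2.20), NUDT3 (1.91), ITPKB (1.33), MYOF (1.24), DUSP5 (1.22), CDCP1 (0.83), NT5E (0.78), UBE2C (0.75), SPRY4 (0.71), HSPA5 (0.69), CFL1 (0.62), ESYT1 (0.60) and PHLDA1 (0.59). For MYOF and ESYT1 the larger value is the smaller fall. Genes with a smaller value in the early pair were RSKR (-3.12), TTC14 (-1.28), MTMR3 (-1.06), NEK9 (-1.01), PTPRS (-0.92) and TRPM7 (-0.79).

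Among them the sign itself differed for CCDC85B, which was 1.82 for the early pair and -1.10 for the late libraries, and for FEM1A (1.02 and -1.18), NUDT3 (0.50 and -1.41), NEK9 (-0.44 and 0.57), MTMR3 (-0.83 and 0.23), TRPM7 (-0.31 and 0.48) and HSPA5 (0.59 and -0.10). Of all 39 genes, 12 had opposite signs. FEM1A, NUDT3 and MTMR3 were much lower in both early libraries than in the late ones, and the part of this in the difference was not tested. MYOF was reduced less in the early pair (-1.88) than in the late libraries (-3.12), while MMP1, DUSP5 and CDCP1 rose more there.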

How the results depend on the processing

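With a replicate block the number of genes past the threshold was 8146 (4213 higher and 3933 lower), against 7932 without it. The count was 8123 with edgeR, 7559 with DESeq2, 7930 with TMM scaling, 7946 with total-read scaling, 5425 without the batch term, 6941 in the late batch alone and 6928 to 7479 with each siRNA library left out in turn. Of the 801 named and listed genes past the threshold, 585 passed without the batch term, and in no alternative fit with replicates did any of them change direction. In the early pair alone, which has no test, FTH1 was at 0.00864, PCNA at 0.0457 and SNHG12 at -0.20, against -0.47, -0.17 and 0.58 in the fit of all libraries, and MYOF was at -1.88. The cause was not tested. The MYOF log2 fold change lay between -3.12 and -2.52 with each siRNA library left out. The effect differed between batches for 39 genes in the fit of 12 libraries and for 3 in the fit of the 6 siRNA libraries, which has fewer samples. The deposited scaling cannot show a change shared by all genes, and with 3 libraries a group and 1 siRNA sequence the values describe these cultures.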
